A study of Mus musculus with 8 samples.

Results

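The genes described here mark dendritic cells, the antigen-presenting cells of the spleen: 7 genes of conventional dendritic cells (Itgax, Flt3, Zbtb46, Clec9a, Batf3, Irf8 and Cd209a) and 3 of plasmacytoid dendritic cells (Siglech, Tcf4 and Pacsin1). They were chosen by name, and every probe set that the platform annotation maps to exactly 1 of these symbols was taken. This gave 19 of the 45101 probe sets of the array table, for 9 of the 10 genes. Clec9a, a receptor of conventional dendritic cells for dead cells, had no probe set under its symbol and was not analysed here. Of the 19 probe sets, 17 lay above the filter on low signal (the median probe set, 5.38 in mean log2 signal) and were tested, 9 of conventional and 8 of plasmacytoid genes. They covered all 9 genes.

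RNA came from spleen cells of male mice, 8 weeks old, after lysis of red cells, and was extracted with Trizol and a column. All mice came from the Jackson Laboratories. There were 4 wild-type samples of strain C57Bl/6J and 4 samples of strain B6.SB-Yaa/J, which carries Yaa on its Y chromosome. Each sample was 1 spleen, except that Yaa 3 was a pool of 2. Yaa is known as a translocation onto the Y chromosome of X-linked genes, Tlr7 among them, and the labels name it as an accelerator of autoimmune disease on susceptible backgrounds. No treatment was given in the labels. The question was which genes differ between the strains, and the samples hold whole spleen suspensions, so no dendritic cell was isolated.

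Conventional dendritic cells take up antigen and prime T cells. They arise under Flt3 signalling, and their type 1 branch needs Irf8 and Batf3. Plasmacytoid dendritic cells sense nucleic acid through endosomal Toll-like receptors, including the product of Tlr7, and release type I interferon. Their identity is kept by the E protein Tcf4, a factor that binds E-box letters in DNA. Several of these genes are used elsewhere: Irf8 and Tcf4 also in B cells, Itgax also in NK cells and macrophages, and Zbtb46 also in endothelium. In bulk RNA, fewer cells of a type and less RNA per cell cannot be told apart.

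RefSeq promoter entries (assembly GRCm38.p6) were found for 9 of the 10 genes, without Tcf4. Itgax and Cd209a had the most alike profiles of all member pairs. Siglech and Pacsin1, both plasmacytoid, parted in Yaa 3 after normalization. The windows of these 4 genes are shown because their normalized signals formed this contrast, described below. Each is the 250 bases before the gene's start, 5′ to 3′ along the gene, and capitals mark E-box (CANNTG) and AP-1 (TGANTCA) letters found on either strand. The windows are chr7:128129300-128129549 (plus strand) for Itgax, chr8:3748985-3749234 (minus strand) for Cd209a, chr7:55767934-55768183 (plus strand) for Siglech and chr17:27684989-27685238 (plus strand) for Pacsin1.
Itgax: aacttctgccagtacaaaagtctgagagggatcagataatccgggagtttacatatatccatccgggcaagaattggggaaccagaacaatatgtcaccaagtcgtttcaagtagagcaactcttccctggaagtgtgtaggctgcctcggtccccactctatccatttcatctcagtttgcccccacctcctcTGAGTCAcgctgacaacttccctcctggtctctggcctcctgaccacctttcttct
Cd209a: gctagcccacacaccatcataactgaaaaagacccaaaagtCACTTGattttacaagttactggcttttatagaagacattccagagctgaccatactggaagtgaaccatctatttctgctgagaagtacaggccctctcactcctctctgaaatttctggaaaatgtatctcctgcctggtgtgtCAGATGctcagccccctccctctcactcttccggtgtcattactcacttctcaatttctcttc
Siglech: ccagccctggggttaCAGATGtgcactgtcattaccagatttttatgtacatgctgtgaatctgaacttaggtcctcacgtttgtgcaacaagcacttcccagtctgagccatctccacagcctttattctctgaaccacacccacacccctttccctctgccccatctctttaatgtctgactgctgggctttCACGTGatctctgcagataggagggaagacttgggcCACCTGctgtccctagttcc
Pacsin1: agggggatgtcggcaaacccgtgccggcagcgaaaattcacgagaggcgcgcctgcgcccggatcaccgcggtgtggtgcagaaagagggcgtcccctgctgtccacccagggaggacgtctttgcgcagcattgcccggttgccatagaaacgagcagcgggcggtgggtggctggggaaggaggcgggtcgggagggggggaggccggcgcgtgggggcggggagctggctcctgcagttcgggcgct

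The Siglech window held 3 E-box matches, the Cd209a window 2, and the Itgax and Pacsin1 windows 0. Among all 32851 promoter windows of this length, 66.2% held an E-box match, so its presence is common. The Itgax window held 1 AP-1 match, which 6.75% of windows held. Letters of the interferon response element and of the joint PU.1 and IRF element, which can overlap each other, were not found in these 4 windows; 2.98% and 2.30% of all windows held them. A match describes letters and is not a binding site.

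Before the members, the samples themselves need describing. Trimmed mean signal ran from 106.2 in Yaa 3 to 192.1 in wild type 2, so the arrays were quantile normalized, and values are log2(normalized signal + 16). Yaa 2 and Yaa 3 stood apart, with a lowest correlation between arrays of 0.906, found between these 2. In Yaa 3, 12 of 12 tested B cell markers had their lowest value. The B cell list averaged 5.44 in Yaa 3, with 10.28 to 10.67 in wild type and 10.27, 10.99 and 10.32 in Yaa 1, Yaa 2 and Yaa 4. Its summed signal was 537 in Yaa 3 and 19033 to 26646 in wild type; 7 of the 12 markers were under the filter level there and 0 were at 0. T cell markers were lowest in Yaa 3 in 9 of 9 cases, and markers of splenic macrophages and NK cells highest there in 9 of 9 and 6 of 6. The ratio of 3′ to 5′ signal of the control genes, a sign of RNA quality, was alike, at 0.728 to 0.833 for Gapdh and 1.26 to 1.38 for actin. In Yaa 2, erythroid markers were lowest in 5 of 5 cases, with a list mean of 10.80 beside 12.19 to 12.50 in wild type. T cell markers were highest there in 9 of 9 cases and B cell markers in 10 of 12. Differences of the members are therefore also given without Yaa 2 and Yaa 3.

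No dendritic cell gene passed limma's test of Yaa against wild-type spleens. At an adjusted p of 0.05, 0 of the 17 tested member probe sets were called, and 0 passed unadjusted. Over all 22518 tested probe sets, 0.00444% were called at the adjusted and 4.73% at the unadjusted threshold. Adjusted p-values of the 9 genes ran from 0.9969 to 0.9998 in limma. Differences (Yaa minus wild type, log2) ran from -0.45 for Pacsin1 to 0.31 for Siglech, with 6 genes higher in mean and 3 lower and a median of 0.068, beside a median of -0.019 over the 10340 tested genes. The groups overlapped in all 17 probe sets; over all tested probe sets, 4.10% did not overlap, 2.43% with Yaa higher and 1.67% with Yaa lower. The 95% intervals of the 9 genes all held 0 and had a median width of 1.23. The lowest bound was -1.09, for Pacsin1, and the highest was 0.75, for Flt3. With 4 against 4, shifts inside a gene's own interval remain possible.

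**Figure D1:**
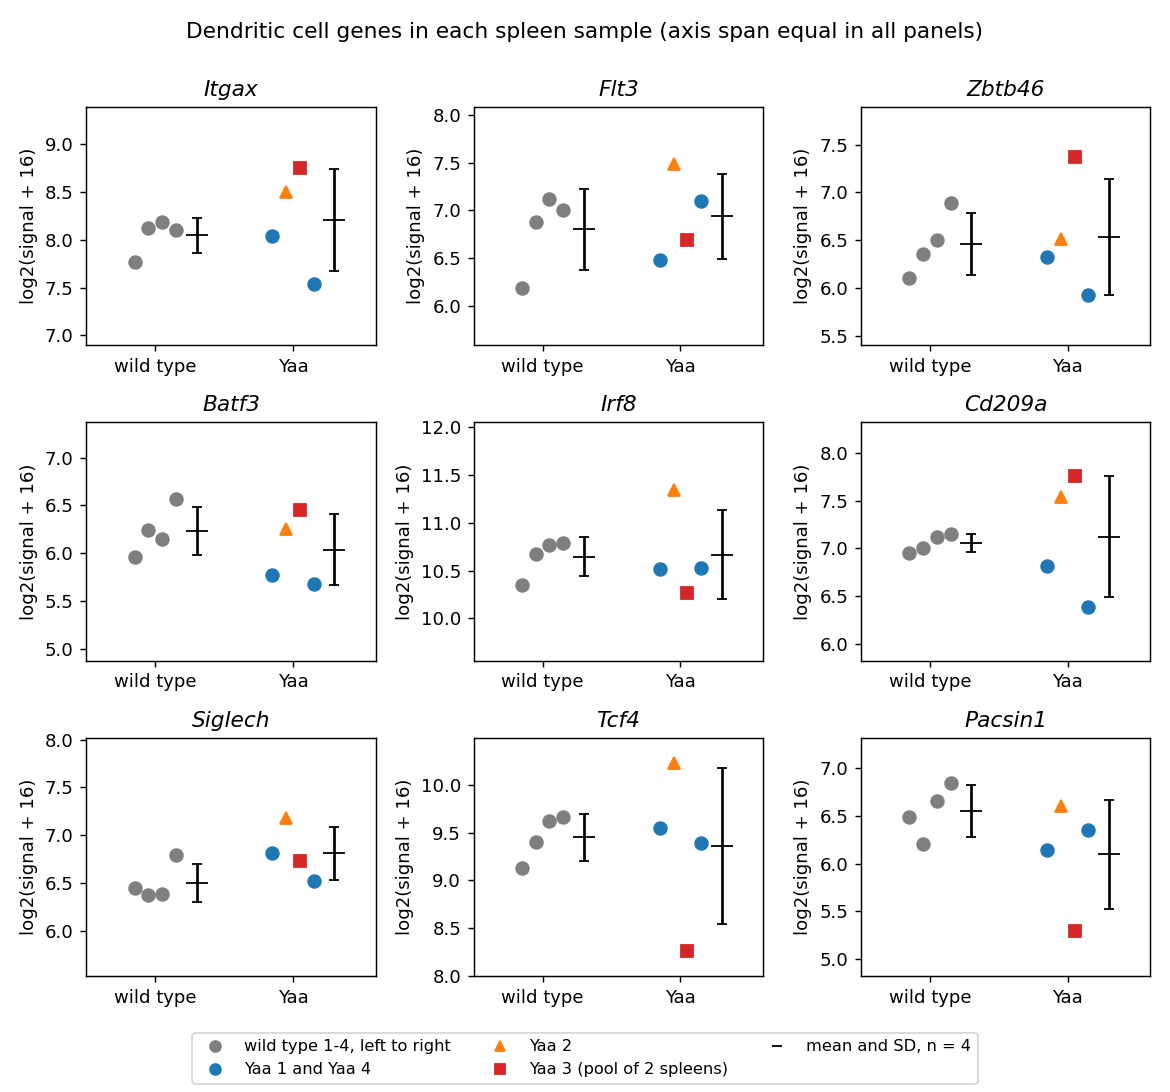
Signal of the 9 member genes, as log2(signal + 16), in each of the 4 wild-type and 4 Yaa samples, with mean and SD (n = 4) beside the points. All 9 genes varied more in Yaa than in wild type, as did 82.8% of all tested probe sets. Yaa 2 or Yaa 3 (marked) was the highest sample in 7 of 9 genes. Over all tested probe sets, Yaa 2 was highest in 30.5% and Yaa 3 in 30.8%.

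Spread was larger in the Yaa group across the array, and the members shared this. The SD was larger in Yaa than in wild type in all 9 genes, with a median of 0.54 in Yaa and 0.24 in wild type. By probe set it was larger in 15 of 17 (88.2%). The whole array was alike: 82.8% of tested probe sets had the larger SD in Yaa, with medians of 0.34 and 0.18. Yaa 2 was above every wild-type sample in 6 of the 9 genes (38.8% of all tested probe sets) and below all in 0 (32.0%). The shift of erythroid, T cell and B cell markers in Yaa 2 stands beside this, and its part was not tested. Yaa 3 was above all in 3 and below all in 3 (38.5% and 31.5%). Yaa 1 was above all in 1 and below all in 3 (19.2% and 21.4%), and Yaa 4 above all in 0 and below all in 4 (21.5% and 22.1%).

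Among the surface molecules, Itgax encodes the integrin chain that defines most splenic dendritic cells. Its log2 signal was 7.77, 8.12, 8.19 and 8.10 in wild type 1 to 4 and 8.04, 8.50, 8.76 and 7.53 in Yaa 1 to 4. Yaa 2 and Yaa 3 were above every wild-type sample, Yaa 4 was below them all, and Yaa 1 lay within their range. In the deposited signal, before normalization, Yaa 3 lay within it too, at 281.0 beside 202.4 to 336.8. The means were 8.05 ± 0.19 (SD, n = 4) and 8.21 ± 0.54 (SD, n = 4), a difference of 0.16 ± 0.25 (SE; limma adjusted p = 0.997). Without Yaa 3 it was -0.022, and without Yaa 2 and Yaa 3 it was -0.26 ± 0.18 (SE; limma adjusted p = 0.775).

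Cd209a, a C-type lectin receptor found on type 2 conventional and monocyte-derived dendritic cells, had the narrowest wild-type range of the 9 genes. It stood at 6.95, 7.01, 7.12 and 7.15 in wild type 1 to 4. In Yaa 1 to 4 it stood at 6.82, 7.53, 7.76 and 6.38. Every Yaa sample thus lay outside the wild-type range after normalization, Yaa 2 and Yaa 3 above it and Yaa 1 and Yaa 4 below. In the deposited signal, Yaa 3 lay inside that range, at 129.3 beside 105.7 to 144.4. The difference of means was 0.068 ± 0.28 (SE; limma adjusted p = 0.997). It turned to -0.14 without Yaa 3 and to -0.069 without Yaa 2, and was -0.46 ± 0.16 (SE; limma adjusted p = 0.417) without both. Itgax and Cd209a followed each other over the 8 samples (Pearson r = 0.95, and 0.86 over the 6 samples without Yaa 2 and Yaa 3), as a description of arrays that share their hybridization and scaling. NK cell markers, some of which are found beside Itgax on the same cells, averaged 8.38 in Yaa 3 and 6.84 to 7.22 in wild type, and splenic macrophage markers 10.19 and 8.80 to 8.94. Their part, and that of the scaling, in the high normalized Itgax and Cd209a signals of Yaa 3 was not tested.

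Flt3, the receptor for the growth factor that drives dendritic cell development, stood at 6.18, 6.88, 7.12 and 7.01 in wild type 1 to 4. In Yaa 1 to 4 it stood at 6.48, 7.49, 6.69 and 7.10. Yaa 2 was the highest sample and wild type 1 the lowest, and the other Yaa samples lay within the wild-type range. The difference was 0.14 ± 0.27 (SE; limma adjusted p = 0.997). It was -0.067 without wild type 1, -0.045 without Yaa 2, and -0.011 ± 0.26 (SE; limma adjusted p = 0.996) without Yaa 2 and Yaa 3.

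Zbtb46, a transcription factor that among immune cells marks the conventional dendritic lineage, had 4 probe sets. The brightest stood at 6.10, 6.35, 6.50 and 6.89 in wild type 1 to 4 and at 6.32, 6.51, 7.37 and 5.93 in Yaa 1 to 4. Yaa 3 was above and Yaa 4 below all wild-type samples. In the deposited signal of this probe set, Yaa 3 lay inside the wild-type range, at 94.9 beside 51.0 to 109.8. The difference was 0.070 ± 0.30 (SE; limma adjusted p = 0.997), and it turned to -0.049 without wild type 1, to -0.21 without Yaa 3 and to -0.34 ± 0.23 (SE; limma adjusted p = 0.768) without Yaa 2 and Yaa 3. The other tested probe sets of Zbtb46 did not share this pattern: the second differed by 0.0026 ± 0.28 (SE) and was highest in wild type 2, and the third by -0.11 ± 0.21 (SE) and was highest in Yaa 1. The fourth lay under the filter, at 4.08 to 5.03.

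Batf3, the factor that type 1 conventional dendritic cells need, was the lowest of the conventional genes in Yaa relative to wild type. It stood at 5.97, 6.25, 6.15 and 6.57 in wild type 1 to 4 and at 5.77, 6.25, 6.45 and 5.68 in Yaa 1 to 4. Yaa 1 and Yaa 4 were below every wild-type sample, while Yaa 2 and Yaa 3 lay within their range. The difference was -0.20 ± 0.22 (SE; limma adjusted p = 0.997). It kept its sign in every setting in which it was tested, reaching -0.51 ± 0.20 (SE; limma adjusted p = 0.479) without Yaa 2 and Yaa 3, and passed in none.

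Irf8, needed by type 1 conventional and plasmacytoid cells and also active in B cells and monocytes, was bright on both of its probe sets. The brighter stood at 10.35, 10.67, 10.77 and 10.79 in wild type 1 to 4. In Yaa 1 to 4 it stood at 10.52, 11.34, 10.27 and 10.53. Yaa 2 was above and Yaa 3 just below every wild-type sample. The difference was 0.021 ± 0.23 (SE; limma adjusted p = 0.9998), with 0.15 without Yaa 3, -0.20 without Yaa 2 and -0.077 without wild type 1. The second probe set showed the same order at both ends and a difference of -0.037 ± 0.26 (SE). Relative to the wild-type mean, the B cell list was at -5.10 in Yaa 3 and Irf8 at -0.38. In Yaa 2 both were at their highest, the list at 0.46 and Irf8 at 0.70. The part of B cell RNA in Irf8 was not tested.

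Of the plasmacytoid genes, Siglech encodes the sialic acid-binding surface receptor that distinguishes these cells in the mouse. It stood at 6.44, 6.37, 6.38 and 6.79 in wild type 1 to 4 and at 6.81, 7.18, 6.73 and 6.52 in Yaa 1 to 4. Yaa 1 and Yaa 2 were above every wild-type sample, and 3 of the 4 wild-type samples were below every Yaa sample; wild type 4 overlapped. The means were 6.50 ± 0.20 (SD, n = 4) and 6.81 ± 0.27 (SD, n = 4). The difference of 0.31 ± 0.18 (SE) was the highest of the 9 genes, 1.24-fold on this scale, with a 95% interval of -0.085 to 0.71. It did not pass (limma p = 0.109, adjusted p = 0.997; two-sided exact permutation p = 0.0857, where the smallest possible is 0.0286). Without Yaa 2 it was 0.19 and without Yaa 2 and Yaa 3 it was 0.17 ± 0.18 (SE).

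Tcf4, the E protein that maintains the plasmacytoid fate and is also expressed in B cells, had 6 probe sets, of which 5 were tested. The brightest stood at 9.13, 9.40, 9.62 and 9.66 in wild type 1 to 4 and at 9.55, 10.23, 8.26 and 9.39 in Yaa 1 to 4. Yaa 2 was the highest and Yaa 3 the lowest sample, and Yaa 1 and Yaa 4 lay within the wild-type range. All 5 tested probe sets had Yaa 2 highest and Yaa 3 lowest, with Yaa 3 from -0.72 to -1.52 and Yaa 2 from 0.61 to 0.80 relative to the wild-type mean. The difference between groups was -0.092 ± 0.36 (SE; limma adjusted p = 0.997) for the brightest and from -0.24 to 0.14 over the 5. It turned to 0.27 without Yaa 3 and was 0.020 ± 0.16 (SE; limma adjusted p = 0.988) without Yaa 2 and Yaa 3. B cell markers moved with Tcf4 in these samples: the list stood at 10.99 in Yaa 2, with 10 of 12 markers highest there, and at 5.44 in Yaa 3. Their part in the Tcf4 signal was not tested. The sixth probe set lay under the filter, at 4.26 to 5.22.

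Pacsin1, an adaptor of endocytosis that plasmacytoid cells use in their interferon response and that neurons express strongly, had the lowest difference of the 9 genes, and it did not pass. The brighter probe set stood at 6.49, 6.21, 6.66 and 6.85 in wild type 1 to 4 and at 6.14, 6.61, 5.29 and 6.35 in Yaa 1 to 4. Yaa 3 was far below all others, under the filter level of 5.38. Yaa 1 was just below the lowest wild-type sample, and Yaa 2 and Yaa 4 lay within the wild-type range. The difference was -0.45 ± 0.28 (SE; limma adjusted p = 0.997), -0.18 without Yaa 3 and -0.31 ± 0.20 (SE; limma adjusted p = 0.756) without Yaa 2 and Yaa 3. The other probe set differed by -0.48 ± 0.43 (SE) and was also lowest in Yaa 3, at 4.45, again under the filter level. Without Yaa 3 its difference was -0.028.

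**Figure D2:**
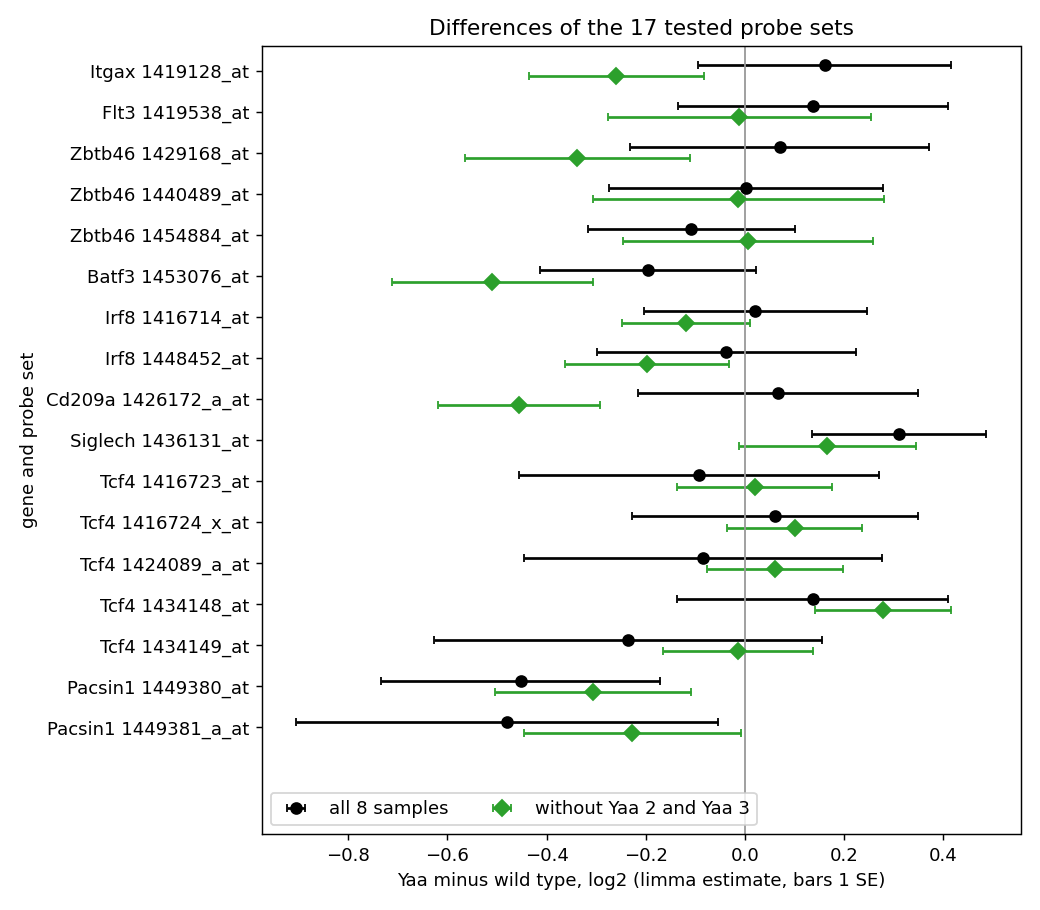
Difference between Yaa and wild type (log2, limma estimate with bars of 1 SE) for the 17 tested probe sets, with all 8 samples and without Yaa 2 and Yaa 3. With all samples the estimates ran from -0.48 to 0.31; without Yaa 2 and Yaa 3 those of Itgax, Cd209a, Batf3 and the brightest Zbtb46 probe set lay between -0.51 and -0.26.

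The estimates of the conventional genes, each by its brightest probe set, were below 0 when Yaa 2 and Yaa 3 were left out. Only Yaa 1 and Yaa 4 then stood for Yaa. In each of the 6 genes the highest Yaa sample was Yaa 2 or Yaa 3. Part of the drop therefore follows from which samples were left out. The dimmer tested Zbtb46 probe sets were at -0.013 and 0.0067 in this fit. The median difference of the 6 genes was 0.069 with all samples and -0.30 without these 2, where all 6 were below 0, beside a median of -0.019 over all tested genes in that fit. When the arrays were weighted in limma, the lowest weights were 0.218 for Yaa 2 and 0.223 for Yaa 3. All 6 genes were below 0 there too, with a median of -0.20. The weights turn down the same samples, so this fit is no separate support. No member probe set was called in either fit (limma adjusted p from 0.308 with weights and from 0.417 without the 2 samples), where 0.635% and 0.457% of all tested probe sets were. At an unadjusted p under 0.05, 1 member probe set was lower with weights and 2 without the 2 samples, beside 6.05% and 4.94% of all tested probe sets. The median of the plasmacytoid genes was -0.092 with all samples and 0.020 without the 2. The difference between the classes was not tested.

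**Figure D3:**
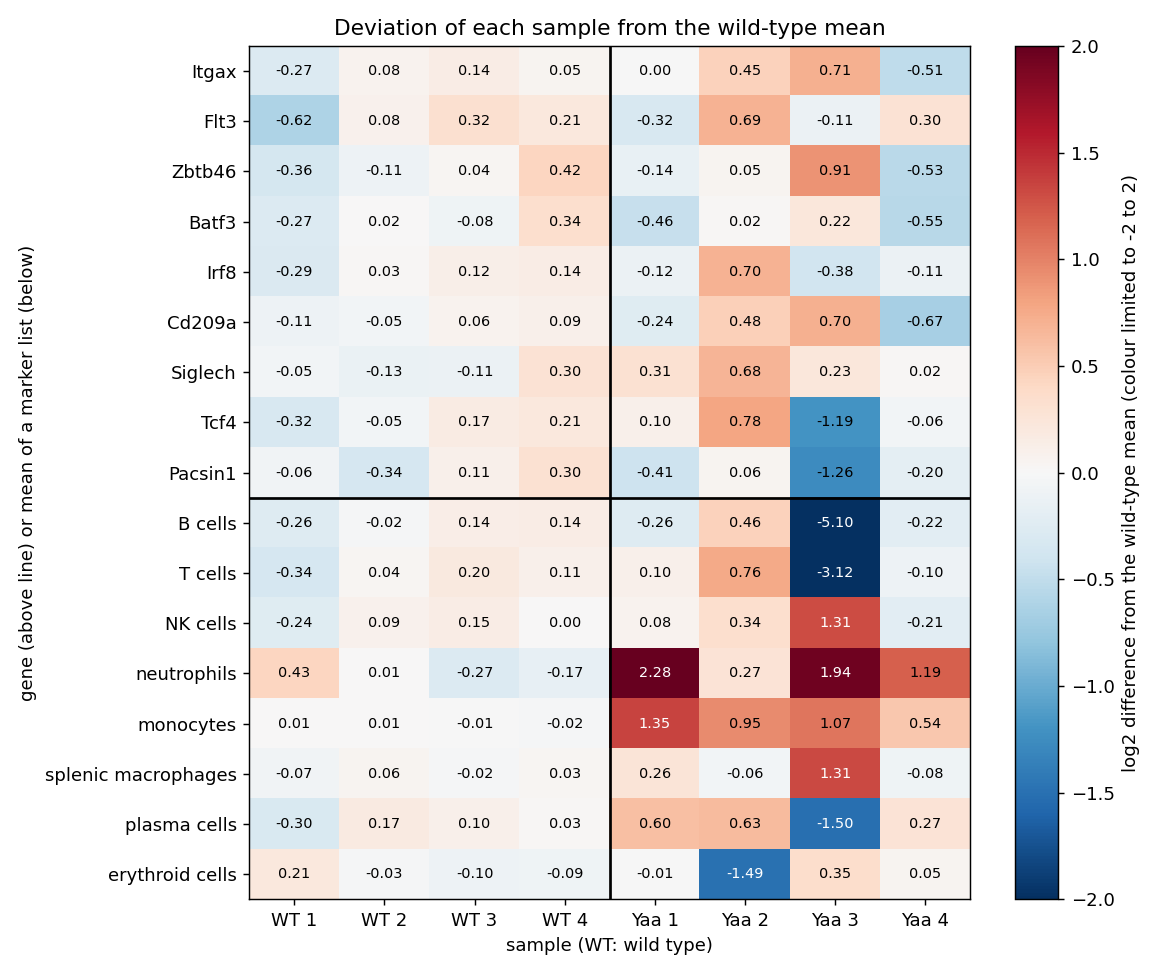
Deviation of each sample from the wild-type mean (log2, printed in each cell) for the 9 member genes and for the mean of 8 marker lists of other cell types. In normalized signal of Yaa 3, Tcf4 (-1.19) and Pacsin1 (-1.26) were low together with the B cell (-5.10) and T cell (-3.12) lists. Itgax (0.71), Zbtb46 (0.91) and Cd209a (0.70) were high there together with the NK cell and splenic macrophage lists (1.31 each). In the deposited signal of Yaa 3, Itgax, Zbtb46 and Cd209a lay inside the wild-type range.

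The members did not all move in the same direction in Yaa 3. In normalized signal of Yaa 3, Siglech was 0.23 above the wild-type mean while Tcf4 and Pacsin1 were at -1.19 and -1.26. In the deposited signal, Siglech too was below every wild-type sample there, at 57.6 beside 64.4 to 102.2. Pacsin1 was at 18.2 beside 71.2 to 106.7, and Tcf4 at 191 beside 555 to 836. The 3 plasmacytoid genes thus parted in direction only after normalization, and Pacsin1 was under the filter level in that sample. Over the 8 samples, the highest Pearson correlations between members after Itgax with Cd209a were Irf8 with Tcf4 (0.87), Itgax with Zbtb46 (0.85) and Cd209a with Zbtb46 (0.84). The lowest was Zbtb46 with Pacsin1 (-0.47), which became 0.64 over the 6 samples without Yaa 2 and Yaa 3. Every other pair below 0 turned above 0 as well. Zbtb46 with Tcf4 went from -0.44 to 0.73 and Itgax with Tcf4 from -0.21 to 0.61. The negative correlations over the 8 samples therefore rest on Yaa 2 and Yaa 3. Other pairs turned from above 0 to below 0 without these samples. Flt3 with Siglech went from 0.39 to -0.12, Cd209a with Siglech from 0.47 to -0.021 and Cd209a with Flt3 from 0.17 to -0.041. The arrays share their scaling. The neutrophil list stood at 10.87, 8.86, 10.53 and 9.78 in Yaa 1 to 4, with 8.32 to 9.02 in wild type, so its highest sample was Yaa 1, where Siglech alone of the members was above all wild-type samples.

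The tested genes most like Siglech over the 8 samples were Sec11c, of the signal peptidase, Impdh1, of guanine nucleotide synthesis, Ube2e2, Tmem115 and Nmt2. Their Pearson correlations were 0.95, 0.94, 0.94, 0.93 and 0.92 over the 8 samples and 0.82 to 0.90 over 6 without Yaa 2 and Yaa 3. Those most like Cd209a were Man2b1, a lysosomal mannosidase, Srebf1, a regulator of lipid synthesis, Lifr, Vav3 and Itgax, at 0.98, 0.97, 0.96, 0.96 and 0.95. These are the highest of 10340 genes and are given as a description.

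Other genes of dendritic cells were examined in 6 lists. Of 83 listed genes, 70 were tested. In limma, 0 of 70 passed after adjustment, while 8 higher and 1 lower passed unadjusted at 0.05 (2.97% and 1.76% of all tested probe sets), and 43 were higher and 27 lower in mean. In 3 genes, Bcl11a, Epha2 and Cebpa, the groups did not overlap, beside 4.10% of all tested probe sets, a share near that of these lists. The smallest adjusted p was 0.880.

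Among partners of type 1 conventional cells, 5 of 11 tested genes were higher and 6 lower in mean, with a median of -0.064 and 0 at an unadjusted p under 0.05. Cadm1, an adhesion molecule of these cells, reached 9.22 in Yaa 3, the other samples lying at 7.56 to 8.03, and its difference of 0.37 ± 0.32 (SE) was 0.022 without Yaa 3. Itgae, an integrin chain, differed by -0.48 ± 0.31 (SE) and Rab7b by 0.37 ± 0.25 (SE), with -0.24 and 0.10 without Yaa 3. Without both Yaa 2 and Yaa 3, Cadm1 was at -0.014, Itgae at -0.24 and Rab7b at 0.069, and Itgae was at -0.29 without wild type 3. The list's median was then 0.025. Xcr1 and Tlr3 lay under the filter.

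Among partners of type 2 cells, 8 of 11 were higher and 3 lower, with a median of 0.10. Tbx21, a T-box factor of NK and T helper cells that also marks a subset of type 2 cells, differed by 0.71 ± 0.30 (SE; limma p = 0.044, adjusted p = 0.997; exact permutation p = 0.0571). Its difference became 0.46 when Yaa 3 was left out, and 0.34 when Yaa 2 was left out too. Sirpa, the inhibitory receptor of type 2 cells and macrophages, stood at 9.66 in Yaa 3 and 8.18 to 8.55 elsewhere, and its difference of 0.35 ± 0.29 (SE) was 0.036 without Yaa 3. Irf4, which B and plasma cells also need, stood at 6.22 in Yaa 3 and 10.51 to 11.19 elsewhere, beside the B cell list that was low in the same sample, and its difference of -1.27 ± 0.95 (SE) was -0.13 without Yaa 3. Esam and Clec10a, found on splenic type 2 cells, differed by 0.048 ± 0.28 and -0.21 ± 0.31 (SE), and both were highest in Yaa 3. Without Yaa 2 and Yaa 3 they were at -0.24 and -0.65, and the list's median at -0.041.

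Of genes shared by conventional subsets, 6 of 11 were higher and 5 lower, with a median of 0.084. Haao and Kmo, enzymes of tryptophan breakdown, differed by -1.03 ± 0.63 and -0.48 ± 0.29 (SE) and were lowest in Yaa 3, at 4.51 and 6.47. Without Yaa 3 they were at -0.33 and -0.18, and without Yaa 2 and Yaa 3 at -0.69 and -0.27. Kit differed by 0.23 ± 0.18 (SE), by 0.076 without Yaa 3 and by 0.16 without both, where the list's median was -0.073. None of the 11 had an unadjusted p under 0.05.

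Plasmacytoid partners included the only gene of the 6 lists that was lower at an unadjusted p under 0.05. Bcl11a, a zinc finger factor that plasmacytoid and B cells need, stood at 8.95, 8.68, 8.45 and 8.70 in wild type 1 to 4 and at 8.26, 8.10, 8.28 and 8.34 in Yaa 1 to 4. Every Yaa sample was below every wild-type sample. The difference was -0.45 ± 0.14 (SE; limma p = 0.011, adjusted p = 0.880; exact permutation p = 0.0286) and was -0.40 without Yaa 2, -0.46 without Yaa 3 and -0.39 without both. Of its 5 other tested probe sets, 1 also had groups that did not overlap, at -0.72 ± 0.17 (SE), and 1 had a difference above 0, at 0.054 ± 0.17 (SE).

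Bst2, an antiviral tether that plasmacytoid cells display and interferon induces, stood at 6.58, 7.23, 7.29 and 7.23 in wild type 1 to 4. In Yaa 1 to 4 it stood at 7.60, 8.06, 7.60 and 7.27. Yaa 1, Yaa 2 and Yaa 3 were above all wild-type samples and Yaa 4 lay within their range, and the difference was 0.55 ± 0.22 (SE; limma p = 0.032, adjusted p = 0.997; exact permutation p = 0.0571), with 0.35 without Yaa 2 and Yaa 3. Epha2, an ephrin receptor, differed by 0.61 ± 0.25 (SE; limma p = 0.035, adjusted p = 0.997; exact permutation p = 0.0286), by 0.64 without Yaa 2 and Yaa 3 and by 0.39 without wild type 1. Spib and Ly6d, which B cells share with plasmacytoid cells, stood at 6.56 and 6.69 in Yaa 3, with 9.89 to 10.27 and 11.04 to 11.49 in wild type. Cox6a2 and Ccr9, of plasmacytoid cells, differed by 0.25 ± 0.15 and 0.30 ± 0.27 (SE). Without Yaa 2, Ccr9 was at 0.035; without wild type 1 it was at 0.18; without Yaa 2 and Yaa 3, Cox6a2 was at 0.11 and Ccr9 at 0.14. Cox6a2 was at 0.16 without Yaa 3. In all, 10 of 14 were higher and 4 lower, with a median of 0.13, which was 0.0079 without Yaa 2 and Yaa 3.

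Among regulators of dendritic development, 8 of 12 were higher and 4 lower, with a median of 0.41, and 5 were higher at an unadjusted p under 0.05, beside 2.97% of all tested probe sets. Id2, which blocks E proteins such as Tcf4 and is needed by type 1 cells, stood at 8.85, 9.34, 9.54 and 9.48 in wild type 1 to 4. In Yaa 1 to 4 it stood at 9.72, 10.61, 10.77 and 9.46. Yaa 1, Yaa 2 and Yaa 3 were above every wild-type sample, and the difference was 0.83 ± 0.31 (SE; limma p = 0.024, adjusted p = 0.997; exact permutation p = 0.0857). It was 0.28 without Yaa 2 and Yaa 3, where the list's median was 0.12. The NK cell and splenic macrophage lists were also highest in Yaa 3, and their part in the Id2 signal was not tested.

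Nfil3, a factor upstream of Id2 in lymphoid and dendritic lineages, differed by 1.16 ± 0.39 (SE; limma p = 0.015, adjusted p = 0.960; exact permutation p = 0.0857), with wild type 1 lowest at 5.13. It was 0.83 without Yaa 2 and Yaa 3. Cebpa, a factor of myeloid progenitors, differed by 0.48 ± 0.16 (SE; limma p = 0.016, adjusted p = 0.960; exact permutation p = 0.0286), with no overlap of the groups, and by 0.57 without Yaa 2 and Yaa 3. Csf2rb and Csf2ra, the chains of the GM-CSF receptor, differed by 0.63 ± 0.26 and 0.50 ± 0.22 (SE), and each by 0.20 without Yaa 2 and Yaa 3. Monocytes and neutrophils also carry this receptor. The monocyte list stood at 9.60, 9.20, 9.31 and 8.79 in Yaa 1 to 4 and at 8.23 to 8.26 in wild type. The neutrophil list stood at 10.87, 8.86, 10.53 and 9.78 in Yaa 1 to 4, with 8.32 to 9.02 in wild type. The part of other cell types in the differences of Id2, Nfil3, Cebpa, Csf2rb and Csf2ra was not tested. Spi1, encoding PU.1, differed by 0.26 ± 0.26 (SE), with -0.0039 without Yaa 2 and -0.086 without Yaa 2 and Yaa 3.

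Of the maturation genes, 6 of 11 were higher and 5 lower, with a median of 0.19 and 0 at an unadjusted p under 0.05. Cd80 and Cd86, ligands that costimulate T cells, differed by 0.44 ± 0.20 and 0.49 ± 0.33 (SE), and Cd86 was highest in Yaa 2, at 9.78. Without Yaa 2, Cd86 was at 0.15, and without wild type 1 at 0.31; without Yaa 2 and Yaa 3, Cd80 was at 0.24 and Cd86 at 0.13. Il15, a cytokine presented to NK cells, differed by 0.45 ± 0.25 (SE), with 0.25 without Yaa 3 and 0.081 without Yaa 2 and Yaa 3. The list's median was then -0.15. Fscn1, an actin bundler of mature dendritic cells, stood at 8.35 in Yaa 2 and at 5.76 to 6.81 elsewhere. Ccr7, the receptor that guides mature dendritic cells and T cells, stood at 7.64 in Yaa 3 and 11.52 to 12.66 elsewhere. The B cell and T cell lists were low in the same sample, at -5.10 and -3.12 relative to the wild-type mean. Their part in the Ccr7 signal was not tested.

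**Figure D4:**
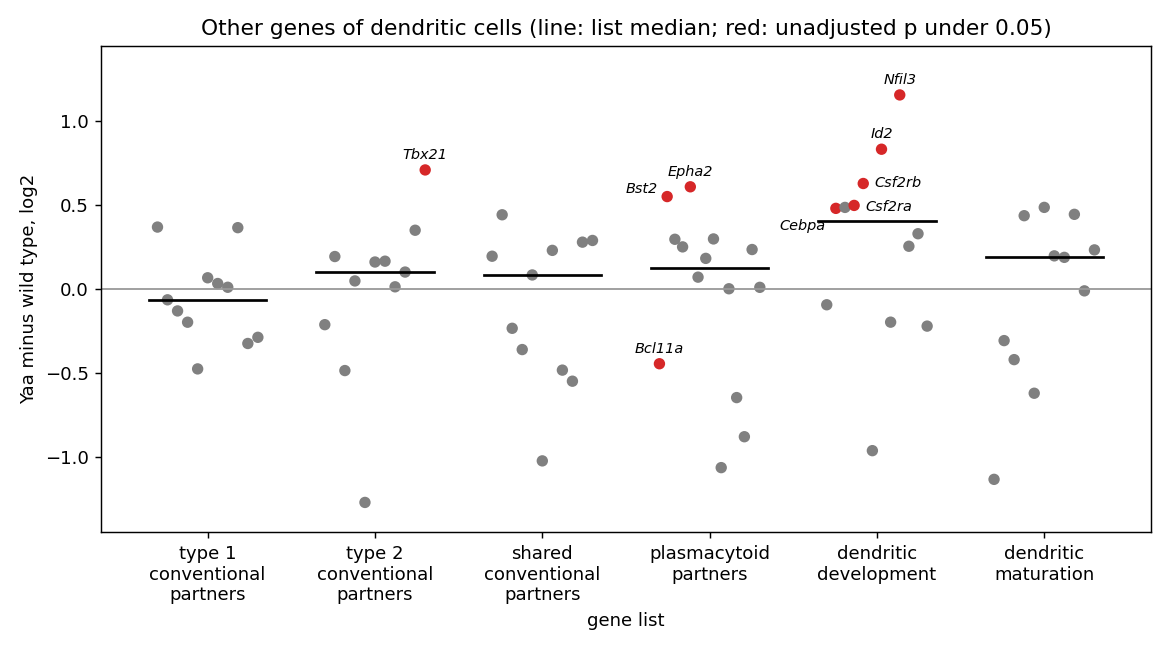
Difference between Yaa and wild type (log2) of 70 tested genes in 6 lists of dendritic cell genes, 1 point per gene, with the list median as a line and an unadjusted limma p under 0.05 in red. Medians ran from -0.064 to 0.41, and 5 of the 9 red points lie among the regulators of development.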

How the data were processed

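Total RNA of 8 spleen samples was hybridized to Affymetrix arrays, 1 per sample. The deposited values are MAS5 intensity signals per probe set, per the submitters' processing notes; version, scaling target and filters were not given in any source used here. The authors' intensity values were quantile normalized, 16 was added and log2 taken, which understates changes of dim probe sets. Controls (64) and probe sets at or below the median were left out, leaving 22518. The 2 groups were compared in limma 3.58.1 (R 4.3.3; lmFit, eBayes with trend), with Benjamini-Hochberg adjustment over all tested probe sets and a threshold of 0.05. limma was tested on simulated data that had the wild-type spread in both groups. This does not show how it performs with the larger spread of the Yaa samples. Exact permutation tests were two-sided over 70 arrangements.

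Symbols follow the platform annotation, updated through Entrez IDs to GRCm38.p6 (35673 of 35877 matched); 34945 probe sets had 1 symbol, 932 several and 9160 none. The brightest tested probe set stood for a gene. Named are all members, the 3 genes of smallest p in each related list, the 5 genes most like Siglech and Cd209a, and others for their role, Esam, Clec10a, Spib, Ly6d, Cox6a2, Ccr9, Csf2rb, Csf2ra, Spi1, Fscn1 and Ccr7 after their values were seen. Members and lists were chosen with earlier results of these data known. Alternatives were other pseudocounts, filters, scalings, variance models, array weights, a replicate block, and samples left out. Per the labels each sample is a separate animal or pool, and the number of arrays limits precision. Figures were drawn with matplotlib 3.10.9.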

Additional observations from a re-analysis of the deposited data

Results flagged for a closer look

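Of 38 groups of 4 looked at (19 member probe sets in 2 groups), 1 held a sample far from the others by Dixon's ratio, and chance alone flags about 1 in 20. It was the dimmer tested Pacsin1 probe set in wild type 2, at 6.53 where the other wild-type samples stood at 6.16 to 6.22, a ratio of 0.840, above the critical value for 4 samples.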

How the results depend on the processing

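The count of called member probe sets was 0 in the main setting and in every alternative tried, as was that of related dendritic genes. Over all tested probe sets, calls numbered 1 in the main setting, 0 with log2(signal + 1), with the filter at the 75th percentile or with a replicate block, 143 with array weights, 103 without Yaa 2 and Yaa 3, and 1 to 31 with single samples left out (31 without Yaa 2, 11 without Yaa 4, 2 without Yaa 1). The replicate block changed no member's call. Deviations of same-numbered samples correlated at -0.37 to 0.016, which cannot show whether these samples were processed together. The median difference of all probe sets was -0.20 with signals as deposited and -0.11 with median-centred arrays, and unadjusted p-values under 0.05 were then 178 higher and 754 lower, and 361 higher and 753 lower, against 669 and 397. Differences of members near 0 turned sign, and the cause was not tested. With signals as deposited, Itgax was -0.060, Flt3 -0.060, Zbtb46 -0.12, Irf8 -0.15 and Cd209a -0.15, all above the array's median shift. With median-centred arrays, Zbtb46 was -0.029, Irf8 -0.066 and Cd209a -0.059. With array weights, Itgax was -0.13, Flt3 -0.16, Zbtb46 -0.25, Irf8 -0.14 and Cd209a -0.28. Without Yaa 2 and Yaa 3, Itgax was -0.26, Flt3 -0.011, Zbtb46 -0.34, Irf8 -0.12, Cd209a -0.46 and Tcf4 0.020. The mean of all tested probe sets gave -0.012 for Zbtb46 and -0.0081 for Irf8. With single samples left out, the ranges were -0.022 to 0.39 for Itgax, -0.067 to 0.29 for Flt3, -0.21 to 0.27 for Zbtb46, -0.20 to 0.15 for Irf8, -0.14 to 0.31 for Cd209a, -0.38 to 0.27 for Tcf4, 0.19 to 0.41 for Siglech, -0.33 to -0.076 for Batf3 and -0.62 to -0.18 for Pacsin1. Siglech, Batf3 and Pacsin1 kept their sign in every setting in which they were tested. Members under the 75th percentile filter have no value there.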
